A study of Homo sapiens with 24 samples.

Results

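The sites described here are those on human chromosome 9 that start at 135 Mb or beyond, in the distal part of band 9q34 and up to the last listed site of the chromosome. They were chosen by position, from tables of 2 comparisons, after the H3K9ac difference of their 1-Mb windows had been seen. The rule finds 42 of the 2191 sites of the H3K9ac table and 216 of the 30475 sites of the Rbap46 table. Positions are those of the tables, on hg19, the build named in the submitters' processing notes. The values came from chromatin immunoprecipitation and sequencing in hTert-HME1 cells, human mammary epithelial cells made immortal by telomerase. Input chromatin (2 libraries) and Rbap46 chromatin (2 libraries) were from untreated cells, and H3K9ac chromatin was from shControl cells (3 libraries) and shHAT1 cells (3 libraries), which carry a short hairpin RNA against HAT1. The shControl libraries were labelled shCon2, shCon3 and shCon5 and the shHAT1 libraries A7, B6 and C5. The labels do not say whether libraries came from separate cultures or whether a line was a single clone. The other 14 of the 24 libraries were not analysed here.

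HAT1 is a histone acetyltransferase that acetylates newly made histone H4, and Rbap46 (RBBP7) is the histone chaperone that binds it. H3K9ac, acetylation of lysine 9 of histone H3, marks active promoters and enhancers and is laid down mainly by other acetyltransferases. Distal 9q34 is a gene-dense, CpG-rich end of a chromosome arm. Its genes include TSC1, a suppressor of mTORC1 signalling, and the SURF cluster with RPL7A, a ribosomal protein gene. They also include NOTCH1, a receptor of cell-to-cell signalling, with NRARP, a feedback inhibitor of that pathway. Several encode chromatin or transcription factors: BRD3, a bromodomain reader of acetylated histones; WDR5, a subunit of histone H3K4 methyltransferase complexes; EHMT1, an H3K9 methyltransferase; NELFB, a subunit of the polymerase pausing factor NELF; and SNAPC4, a subunit of the complex that starts small nuclear RNA transcription.

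All 49 gene symbols listed for the band were found on chromosome 9 in the RefSeq gene table of GRCh38.p14. From TSC1 to the end of the chromosome that table holds 122 protein-coding genes, or 15.7% of the 778 on chromosome 9. RefSeq promoters (GRCh38.p14, from 250 bases before to 50 after the start) were found for 110 of them. Their median GC content was 70.3% with 29 CpG dinucleotides, against 63.7% and 23 for 567 other genes of the chromosome. That table is of another build than the sites, so no gene name was given to a site.

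At the 42 H3K9ac sites the acetylation was lower in shHAT1 than in shControl cells. Levels are the authors' group means of 3 libraries, as log2 of the normalized read concentration, and no value per library was used, so no SD can be given. In shControl cells the level ran from 8.17 to 11.68 with a median of 9.48, and in shHAT1 cells from 6.61 to 10.20 with a median of 8.24. The median difference, shHAT1 minus shControl, was -1.02 on the log2 scale, with quartiles of -1.23 and -0.89. At this median the shHAT1 level was 49.3% of the shControl level. No site was higher in shHAT1 cells, and differences ran from -1.95 to -0.62.

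The count of 42 lower sites out of 42 has to be read against the table, in which 99.2% of sites were lower in shHAT1, since the table lists only sites that the authors called at a false discovery rate (FDR) under 0.1. At FDR under 0.05 the authors' deposited table held 25 of the 42 sites (59.5%), against 36.1% of all its sites. A difference of -1 or less, that is at least a 2-fold loss, was reached by 21 of the 42 sites, against 18.3% of all listed sites. The region was chosen on the same contrast, so these shares describe it and are not a test of it.

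**Figure D1:**
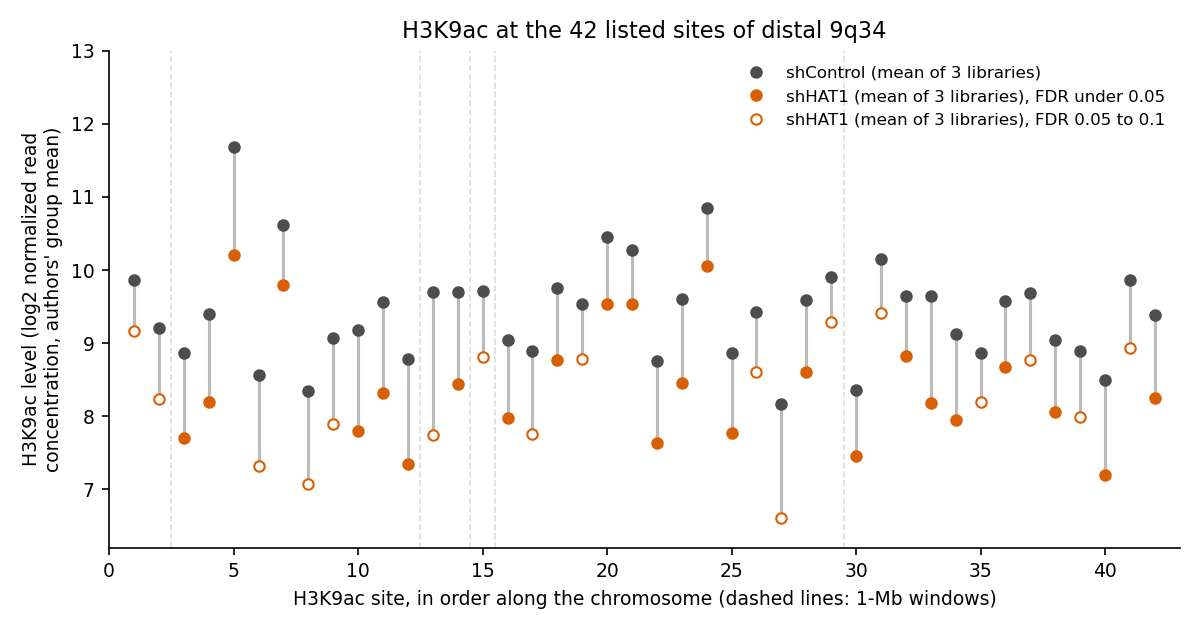
H3K9ac level (log2 normalized read concentration, vertical axis) of the 42 listed sites in order along the chromosome. Dark points are the mean of the shControl libraries and orange points that of the shHAT1 libraries, filled where the authors' FDR was under 0.05. Every orange point lies below its dark point, and the longest line, -1.95, belongs to a site with a shControl level of 9.70.

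The largest loss lay in the window from 137 to 138 Mb. Its site from 137029554 to 137030054 fell from 9.70 in shControl to 7.75 in shHAT1 cells, which leaves 25.9% of the control level. Its FDR was only 0.0557 in the authors' deposited table, so the size of the difference and its rank by test did not go together. A second site lies beside it, from 137030068 to 137030568. It started from the same shControl level of 9.70 and fell to 8.44, with an FDR of 0.0360 per the authors' deposited table. These were the only H3K9ac sites of that window.

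The window from 136 to 137 Mb held 10 sites, with a median difference of -1.25 and a range from -1.48 to -0.81. The site from 136214261 to 136215607 had the highest shControl level of all 42, at 11.68, and fell to 10.20 (FDR 0.0308 per the authors' deposited table). High sites elsewhere in the region lost less. Of the 6 sites with a shControl level of 10 or more it was the only one with a difference of -1 or less, and the 6 had a median of -0.81. In the same window the site from 136933217 to 136934115 fell from 8.79 to 7.34 (FDR 0.0374 per the authors' deposited table), a difference of -1.45. A run of 3 close sites from 136856539 to 136858470 had differences of -1.17, -1.38 and -1.24. The middle one, from 136857453 to 136857953, had an FDR of 0.00441 per the authors' deposited table.

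The window from 139 to 140 Mb held 14 sites with a median difference of -0.99, and that from 140 to 141 Mb held 13 with a median of -0.92. The smallest FDR of the region, 5.98e-05 in the authors' deposited table, belonged to the site from 140135617 to 140136117, which fell from 9.65 to 8.18. It is the centre of a run of 3 close sites. The site before it, from 140134849 to 140135349, fell from 9.64 to 8.82 (FDR 0.0454 per the authors' deposited table), and the site after it, from 140136132 to 140136632, from 9.13 to 7.95. Loss thus differed by 0.65 within 1784 bp.

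Another run of 3 sites, from 139377122 to 139378889, differed by 0.40 among its members. The outer site with the higher shControl level, 10.28, lost 0.75, and its neighbours, with levels of 8.76 and 9.60, had differences of -1.13 and -1.15. The last of them, from 139378389 to 139378889, had an FDR of 0.00813 per the authors' deposited table. A pair from 140512705 to 140514237 differed by 0.20, with differences of -0.93 and -1.13. The lowest level of the region in either group was at 139844113 to 139845016, where H3K9ac fell from 8.17 to 6.61 (FDR 0.0522 per the authors' deposited table). The smallest FDR values also included those of the sites from 139257716 to 139258216 (9.76 to 8.77) and from 140484449 to 140484949 (9.04 to 8.06), which were 0.0218 and 0.0204 in the authors' deposited table.

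The weakest losses were spread over the region. The site from 139980690 to 139981190 fell from 9.91 to 9.29 (FDR 0.0697 per the authors' deposited table) and that from 140149692 to 140150192 from 8.87 to 8.19 (FDR 0.0867 per the same authors' deposited table). The third was the first site inside the 135 Mb limit, from 135545331 to 135545831, which fell from 9.87 to 9.17 (FDR 0.0706 per the authors' deposited table). The last site outside the limit, from 134000437 to 134001387, fell from 10.17 to 9.26. The remaining windows held few sites. In the window from 135 to 136 Mb the larger of 2 differences was -0.98, at 135905481 to 135905981, and the single site of the window from 138 to 139 Mb, at 138392375 to 138392875, had -0.90.

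The other 71 H3K9ac sites of chromosome 9 had a median difference of -0.76, with quartiles of -0.90 and -0.66, and the 2149 sites outside distal 9q34 had one of -0.77. The median of distal 9q34 minus these medians was thus -0.26 and -0.25. The offset was present at both quartiles, at -0.33 and -0.23 against the other sites of the chromosome. In shControl cells the level of distal 9q34 minus that of those other sites was 0.12 at the median, 0.23 at the lower quartile and -0.13 at the upper quartile, so it had no single direction. In shHAT1 cells the level was lower in distal 9q34, with differences of -0.44 at the median and -0.09 and -0.34 at the quartiles. Across the table, losses were smaller at sites of higher shControl level, with medians of -0.88, -0.76 and -0.70 outside the region in 3 groups of rising level. These groups were set after values had been seen, at shControl levels of 8.91 and 9.61, which divide all listed sites into 3 equal parts. From the lowest to the highest group, the medians were -1.15, -1.09 and -0.91 in distal 9q34. On the rest of the chromosome they were -0.84, -0.72 and -0.69. Only sites called at FDR under 0.1 are listed, so this trend describes listed sites. How far the listing shapes it was not tested.

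Short arms of chromosomes 16 (start under 35 Mb) and 19 (start under 24 Mb) are gene-dense as well. Their 150 and 61 H3K9ac sites had median differences of -0.79 and -0.74. At least a 2-fold loss was found at 20.0% and 6.56% of them, against 21 of 42 sites in distal 9q34. At FDR under 0.05 the authors' deposited table held 50.7% and 29.5% of them, against 59.5% in distal 9q34. Distal 9q34 did not hold the window with the largest median loss of the genome. Among 84 windows with at least 5 H3K9ac sites that from 136 to 137 Mb ranked second, after a window of chromosome 1 with 5 sites and a median of -1.30. No test of these differences between regions was made, because sites of a region share their libraries and are not replicates.

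**Figure D2:**
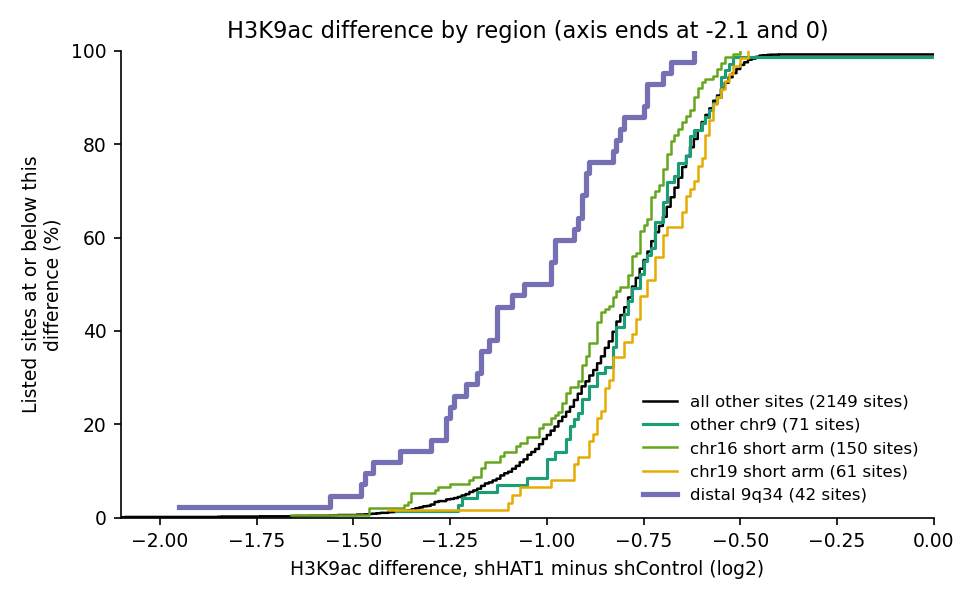
Share of listed H3K9ac sites (vertical axis, %) at or below each shHAT1 minus shControl difference (horizontal axis, log2) for distal 9q34 and 4 sets of other sites. The thick line of distal 9q34 lies left of the others, with its median at -1.02 against -0.79 to -0.74 for the other sets.

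Rbap46 was above input at all 216 of its sites in distal 9q34, at FDR under 0.05 in the authors' deposited table. That share is close to the 99.8% of the whole table, which lists no site with an FDR above 0.05. Levels are again log2 concentrations, as the authors' means of 2 libraries. The Rbap46 level ran from 4.90 to 8.77 with a median of 6.94, and the input level from 3.52 to 7.18 with a median of 5.81. The median difference, Rbap46 minus input, was 1.10, or 2.14-fold, with quartiles of 0.89 and 1.38. A difference of 1 or more was found at 130 sites (60.2%), against 58.0% of all listed sites. The other 1004 sites of chromosome 9 had a median of 1.07 and the 30259 sites outside the region one of 1.05. The offset of distal 9q34 from the sites outside it was 0.05 at the median and 0.11 at the upper quartile. Neighbours within 10 kb were also counted once, by the site of highest concentration of each run. This left 101 sites in distal 9q34 and 662 on the rest of chromosome 9. Their median Rbap46 differences were 1.26 and 1.11, so the size of the offset rests on how close sites are counted and which are kept.

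The strongest enrichment was at 140033522 to 140034022, where Rbap46 had 6.89 and input 4.45, a difference of 2.44 (FDR 2.28e-13 per the authors' deposited table). Next came the site from 139137101 to 139137601, with 8.08 and 5.68 (FDR 3.35e-12 per the authors' deposited table). The site from 135819857 to 135820357 had 8.32 and 5.96 (FDR 1.9e-31 per the authors' deposited table). The highest Rbap46 level of the region, 8.77, was at 135545120 to 135545620. With 6.51 in input, this site had the smallest FDR of the region, 1.67e-36 in the authors' deposited table. The fifth by difference, from 140063389 to 140063889, had levels of 7.00 and 4.91. In all, 6 of 216 sites (2.78%) had a difference of 2 or more. The exact (Clopper-Pearson) 95% interval of this share, 1.03% to 5.95%, covers counting error only. It takes sites as independent, although they share libraries and lie close together, so it is no test between regions. Over all sites outside the region the share was 0.968%, below that interval. It was 1.2% on the rest of chromosome 9, inside the interval. The short arms of chromosomes 16 and 19 had 1.78% and 1.27%, also inside it.

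The other windows were led by weaker sites. These were 136282997 to 136283497 (difference 1.97), 137230208 to 137230708 (1.90) and 138392436 to 138392936 (1.75). The last site of the chromosome, 141044385 to 141044885, had 1.10. The weakest were 136324959 to 136325459 (0.56), 138884465 to 138884965 (0.60) and 139691196 to 139691696 (0.62), all with FDR above 0.01 in the authors' deposited table. The sites on either side of the limit were alike, with 0.75 at 135111652 to 135112152 inside and 0.80 at 134955022 to 134955522 outside.

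Input level, which follows DNA copy number and mappability among other things, was even over the region by window median but not by site. Its median was 6.40 at Rbap46 sites that overlapped an H3K9ac site and 5.78 at the others. Over windows of the region with at least 10 Rbap46 sites the median input level lay between 5.58 and 5.89. The median Rbap46 difference there lay between 1.05 and 1.21. Just outside, the windows from 133 to 134 Mb and from 134 to 135 Mb had median input levels of 6.58 and 6.63 and median Rbap46 differences of 0.77 and 0.78. The raised input and the lower Rbap46 difference thus ended before the limit. Within the region the highest input levels were 7.18, 7.16 and 7.11, at 139010389 to 139010889, 139980973 to 139981473 and 140135051 to 140135551. The lowest were 3.52, 3.57 and 3.70, at 138494560 to 138495060, 136988119 to 136988619 and 135631869 to 135632369. The H3K9ac table holds no input of shControl or shHAT1 cells, so no input value can be set beside its differences.

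**Figure D3:**
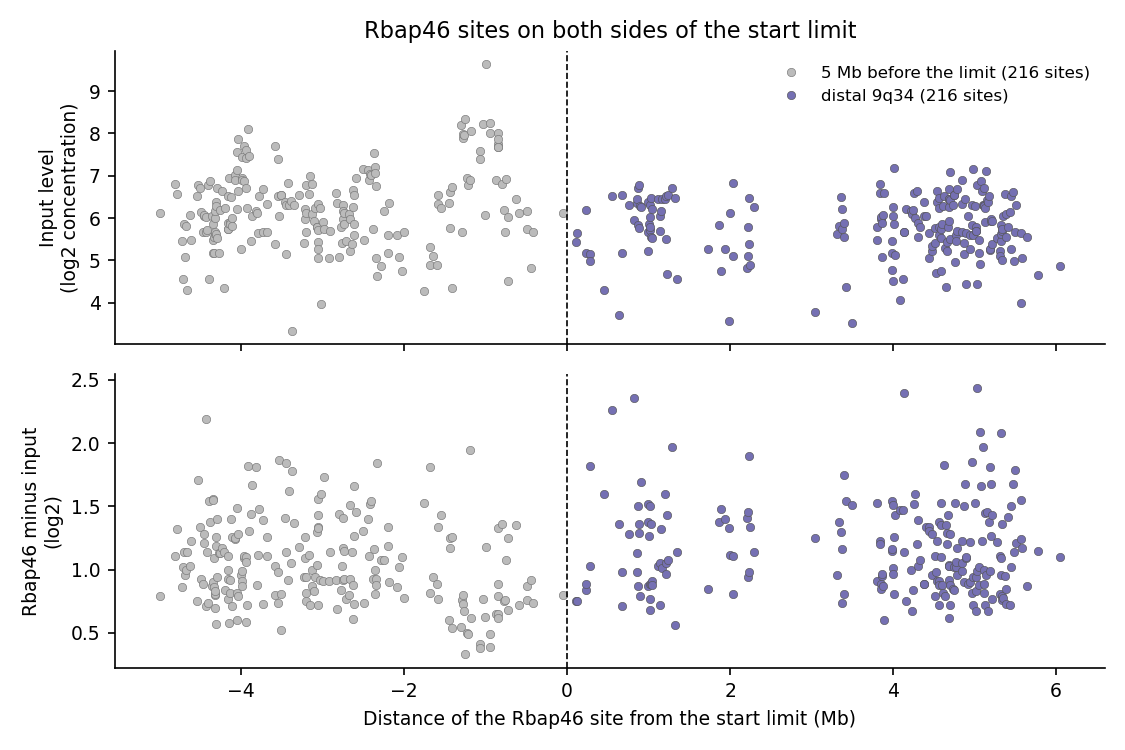
Input level (upper panel) and Rbap46 minus input (lower panel, both log2) of each Rbap46 site against its distance in Mb from the start limit (dashed line). Several sites just before the limit have a higher input level and a lower Rbap46 difference than most, whereas none of the 216 sites of distal 9q34 has an input level above 7.18.

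Sites of both tables were then set side by side by position. Of the 42 H3K9ac sites, 32 (76.2%) overlapped an Rbap46 site by at least 1 bp, against 74.6% on the rest of chromosome 9 and 76.1% outside the region. On the short arms of chromosomes 16 and 19 the share was higher, at 90% and 90.2%. From the other side, 32 of the 216 Rbap46 sites (14.8%) overlapped a changed H3K9ac site, with an exact 95% interval of 10.4% to 20.3% that covers counting error only. Of the 1003 sites above input on the rest of the chromosome 52 did (5.18%, interval 3.90% to 6.74%), and outside the region 5.35%. The share was 18.9% on the chromosome 16 short arm, above that of distal 9q34, and 5.38% on that of chromosome 19. Distal 9q34 was chosen with its H3K9ac windows known, and the intervals take sites as independent, which they are not. These shares are therefore descriptions. There were 19.4 changed H3K9ac sites per 100 Rbap46 sites, against 7.1 on the rest of the chromosome. The ratio was 22.4 on the chromosome 16 short arm and 6.0 on that of chromosome 19. Changed H3K9ac sites were thus dense in distal 9q34 relative to Rbap46 sites, as on the chromosome 16 short arm, where the loss per site was smaller. H3K9ac sites not called changed are not listed, so the density of the mark itself is not known.

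By 1-Mb window the number of changed H3K9ac sites beside Rbap46 sites was uneven. Windows from 135, 137 and 138 Mb held 2, 2 and 1 H3K9ac sites with 24, 10 and 25 Rbap46 sites. Windows from 139, 140 and 136 Mb held 14, 13 and 10 H3K9ac sites with 76, 53 and 27 Rbap46 sites, and no other window of chromosome 9 held more than 6 H3K9ac sites. By number of H3K9ac sites these 3 ranked 5, 7 and 12 among 1003 windows of the genome with a site. The 5 Mb before the limit also held 216 Rbap46 sites, with 10 H3K9ac sites, up to 5 of them in 1 window, with a median H3K9ac difference of -0.80 and a median Rbap46 difference of 1.00. This stretch was chosen after its values were seen. Over the 92 windows of chromosome 9 with a site, Pearson's r between the 2 counts was 0.64 and Spearman's rho 0.44, and without distal 9q34 0.42 and 0.36 over 85 windows. Windows share their libraries and gene density, so these values are descriptions.

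**Figure D4:**
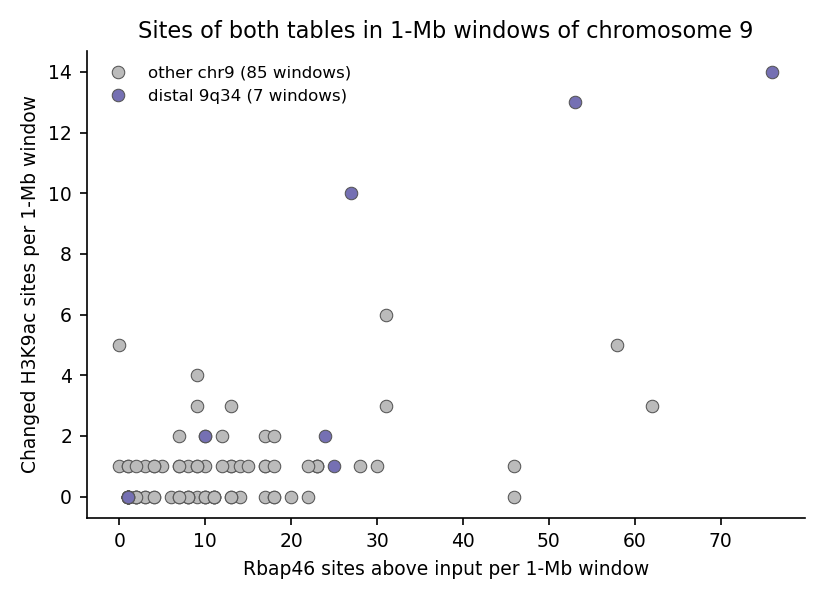
Number of changed H3K9ac sites (vertical axis) against number of Rbap46 sites above input (horizontal axis) in each 1-Mb window of chromosome 9 with a site. Of the 7 windows of distal 9q34 (purple), 3 hold 10 to 14 H3K9ac sites, whereas windows of the rest of the chromosome with more than 50 Rbap46 sites hold 3 and 5.

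The Rbap46 difference and the H3K9ac loss were not largest at the same places. Of the 6 sites with an Rbap46 difference of 2 or more, 2 overlapped an H3K9ac site, against 32 of all 216 Rbap46 sites of the region (14.8%). Overlap was thus not rarer at these 6 sites. The others of the 6 lay 31 to 85 kb from the nearest H3K9ac site. At the site of 135545120 to 135545620, with an Rbap46 difference of 2.26, H3K9ac fell by 0.70, among the smallest losses of the region. At 139137101 to 139137601, listed with the same ends in both tables, the Rbap46 difference of 2.40 stood beside an H3K9ac difference of -1.06 (levels of 9.04 and 7.98). The 3 largest H3K9ac losses overlapped Rbap46 sites with differences of 1.11, 1.05 and 0.97.

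The Rbap46 sites under the named H3K9ac sites had differences from 0.72 to 1.75, apart from that at 135545120 to 135545620. Below the largest loss, the site from 137029709 to 137030209 had an Rbap46 level of 7.95 and an input level of 6.84. In the 136-Mb window, the site from 136214864 to 136215364 had 7.49 and 6.52, and differences of 1.38 and 1.40 were found at 136857930 to 136858430 and 136933264 to 136933764. In the 139-Mb window, the site from 139257941 to 139258441 had 8.11 and 6.59, a difference of 1.52. Both sites under the run of 3 there, from 139377134 to 139377634 and from 139377859 to 139378359, had a difference of 0.89, and that from 139844469 to 139844969 had 1.05. Those in the 140-Mb window, from 140149444 to 140149944, from 140483954 to 140484454 and from 140512939 to 140513439, had differences of 1.46, 1.14 and 1.21.

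Each of the 32 overlapping H3K9ac sites was paired with the Rbap46 site of the longest overlap. The 10 pairs with an Rbap46 difference of 1.5 or more had H3K9ac differences from -1.21 to -0.70 with a median of -0.91. The 22 other pairs ran from -1.95 to -0.62 with a median of -1.04. Pearson's r over the 32 pairs was 0.20 and Spearman's rho 0.17, given as a description, since pairs share libraries. The share of Rbap46 sites that overlapped a changed H3K9ac site was 9.30% of 86 sites with an Rbap46 difference under 1, 15.2% of 92 sites from 1 to 1.5 and 26.3% of 38 sites above. The exact 95% intervals of the outer groups, 4.10% to 17.5% and 13.4% to 43.1%, overlapped. On the rest of the chromosome the same shares were 2.41%, 5.52% and 13.7%. There the outer intervals, 1.16% to 4.39% and 8.02% to 21.3%, did not overlap. Over all sites outside the region the shares were 3.67%, 5.59% and 11.3%. Their outer intervals, 3.35% to 4.02% and 10.2% to 12.5%, did not overlap either. All these intervals cover counting error only and take sites as independent. Sites share libraries and lie close together, and the groups differ in size, so overlap of intervals is no test.

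**Figure D5:**
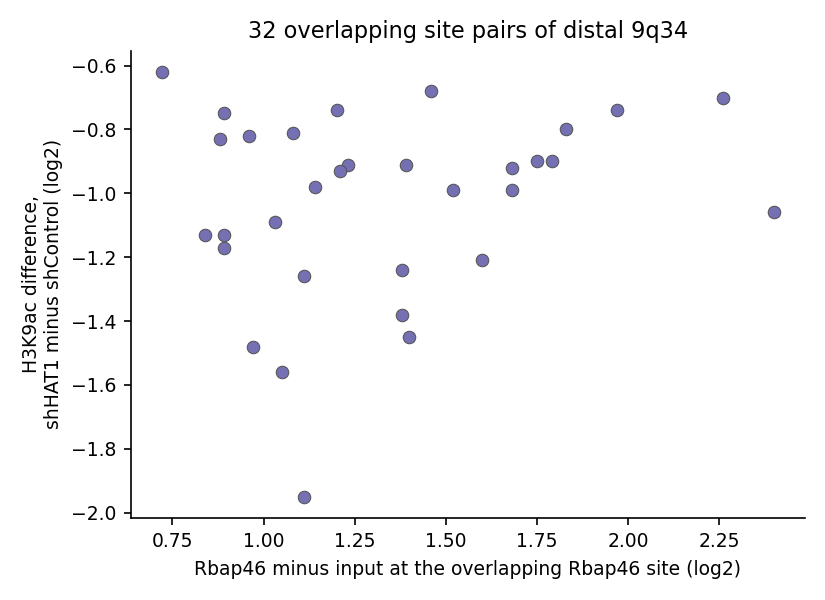
H3K9ac difference, shHAT1 minus shControl (vertical axis, log2), against Rbap46 minus input (horizontal axis, log2) for the 32 H3K9ac sites of distal 9q34 that overlap an Rbap46 site. All points with a loss beyond -1.21 have an Rbap46 difference under 1.5, and the point at -1.95 has one of 1.11.

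The 10 H3K9ac sites without an Rbap46 overlap had a median difference of -1.17, and the 32 with one had -0.96. Outside the region the order was the same, at -0.88 and -0.74. The sites without overlap had a lower shControl level in both places, with medians of 9.17 against 9.57 in distal 9q34 and 8.81 against 9.41 outside it. Most of the 10 still lay close to Rbap46, 7 of them within 1 kb. With overlapping sites included, 92.9% of the 42 sites lay within 1 kb of an Rbap46 site, against 85.9% outside the region. The share was 80.3% on the rest of chromosome 9, and 96% and 96.7% on the short arms of chromosomes 16 and 19. The site of smallest FDR, from 140135617 to 140136117, lay 65 bases from an Rbap46 site with a difference of 0.96. The 3 farther sites were those from 136746460 to 136747412, 140353347 to 140354306 and 140506326 to 140506826, at 11282, 4268 and 5656 bases. Their H3K9ac differences were -1.26, -0.89 and -1.30.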

How the data were processed

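Both tables were deposited by the authors as comparisons of group means. Per the file headers they have the layout of a DiffBind report, and the submitters' processing notes name cutadapt, Bowtie2, SAMtools, Picard, MACS2 and DiffBind, with build hg19. For the Rbap46 libraries those notes add DESeq2, with MACS2 2.1.0 and R 3.3.1. The scaling between libraries was not given in the sources used here. The deposited concentrations and folds are log2 values, and each p-value and FDR is the authors' own. The authors' fold has the opposite sign for H3K9ac, and differed from the differences of levels used here by at most 0.01.

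From these, differences, medians, overlaps of at least 1 bp and counts per 1-Mb window were computed in Python 3.11 (pandas 2.3.3, numpy 2.4.6, matplotlib 3.10.9, scipy 1.17.1), and the code that finds overlaps was checked on simulated intervals. Depth per library is unknown, and with group means no SD, fit or test of the region was possible. The sites, the 49 gene symbols and the comparison regions were chosen with earlier results of these data known. H3K9ac sites named are the 5 of smallest FDR, the 5 largest and 3 smallest losses, the largest of each window, pairs within 2 kb, and those beside the start limit. Rbap46 sites named are the 5 largest and 3 smallest differences, the 3 highest and lowest inputs, the strongest of each window, and those that overlap a named H3K9ac site or lie beside the limit. Any other site, and 3 H3K9ac sites far from Rbap46, were chosen after their values were seen. Alternatives were other limits on FDR, concentration, start, width, overlap and window, with neighbours within 10 kb counted once.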

Additional observations from a re-analysis of the deposited data

How the results depend on the processing

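Of 55 other settings, 41 left a count within 1.5 times, or a median or share within the exact binomial 95% interval of the reported one. A sign changed in 0, which could hardly be otherwise, since nearly all listed sites of each comparison differ in the same direction. The interval takes sites as independent, although they share libraries, so it served as a yardstick only. The median H3K9ac difference of distal 9q34 stayed within that interval under each other setting tried for it, most of which kept part of the same sites. It ran from -1.15 to -0.96 without each 1-Mb window in turn, a check chosen after seeing the data. For the rest of chromosome 9 it was -0.91 at FDR under 0.05, and, by 3 groups of shControl level added later, -0.84 in the lowest and -0.69 in the highest. Lower H3K9ac sites numbered 25 at FDR under 0.05, by construction. At FDR under 0.01 the median Rbap46 difference was 1.17 in distal 9q34 and 1.14 on the rest of the chromosome, and the median input level 5.96 and 5.91. With neighbours within 10 kb counted once, the Rbap46 medians were 1.26 and 1.11, and 101 Rbap46 sites were left. Above the 25th percentile of concentration the median of the rest was 1.03, and on the long arm alone its input level was 5.81. The share of H3K9ac sites overlapping Rbap46 was 52.4% when 50% of the site had to overlap and 92.9% within 1 kb. Outside the region the share within 1 kb was 85.9%. In windows of 0.5 Mb the fullest held 9 H3K9ac sites. No paired analysis was possible because both deposited tables give means of groups. For the same reason no library was left out and no other normalization was tried, and depth per library is unknown.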

Other observations

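The ends of the other long arms, taken over the same 6.04 Mb before the last Rbap46 site, were compared after the values of distal 9q34 had been seen. They held from 0 to 19 changed H3K9ac sites, against 42 on chromosome 9, and from 22 to 262 Rbap46 sites, against 216. Ends of 2 other chromosomes held more Rbap46 sites. Among the 11 other ends with at least 5 H3K9ac sites the median H3K9ac difference ran from -1.05, on chromosome 13 with 5 sites, to -0.57, on chromosome 8 with 6. The end of chromosome 22 came next after chromosome 13, with -0.92 over 13 sites. The value of -1.02 over 42 sites on chromosome 9 thus lay inside this range, and its number of sites lay outside it. No test of these differences was made.

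Changed H3K9ac sites of distal 9q34 also lay close together. The median gap between neighbours was 34.5 kb, against 328 kb over all sites outside the region and 679 kb on the rest of chromosome 9. Gaps of 2 kb or less numbered 8 for 42 sites, against 246 for 2149 sites outside the region. For Rbap46 the median gap was 8.9 kb, against 19.2 kb outside the region and 21.4 kb on the rest of the chromosome. Gaps were not computed for the short arms of chromosomes 16 and 19, so close spacing is not shown to be particular to distal 9q34. Of the 42 H3K9ac sites 26.2% were wider than the smallest listed width, with an exact 95% interval of 13.9% to 42%. That interval, which takes sites as independent, holds the shares of 15.5% on the rest of the chromosome and 21.5% over all other sites. It also holds the 26.0% on the chromosome 16 short arm. The widest had 1367 bp.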
